A study of Mus musculus with 6 samples.

Results

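The genes described here are the protein-coding genes of mouse chromosome 19 that lie within 10 Mb of Il33 on either side. They were taken from the deposited count table by position, from 19925114 to 39925114 (mm10), by gene type, and by a summed count of at least 60 over the 6 libraries. Il33 itself, Mlana, Cd274 and the genes whose names start with Ifit were left out by name. Of 35275 listed genes, 141 were protein-coding rows of this stretch. Of these, 6 were left out by name, 34 had a summed count under 60, and 101 remained, 48 at lower and 53 at higher coordinates than Il33.

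The genes were thus chosen by position, gene type and summed count, and not by the difference between genotypes. The stretch was nevertheless proposed with the result for Fgfbp3 known, so that result describes the stretch and is no separate support for it. All 101 genes passed the filter on low counts. The genes just above the minimum of 60 were Trpm3 with a summed count of 75, and 4430402I18Rik and Ankrd1 with 84 each. Just below it were Lgi1 with 52, Cyp26c1 with 41 and Cyp2c29 with 39. At the edges of the stretch, Anxa1 at 9.552 Mb and Hells at 9.006 Mb from Il33 were the outermost genes inside. Rorb at 10.99 Mb and Pdlim1 at 10.30 Mb were the nearest outside.

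The 6 RNA-seq libraries came from the epithelial region of the back skin of C57BL/6 mice, 3 with the genotype IL-33 KO and 3 WT. The back skin of both genotypes had been painted with 0.25% dinitrofluorobenzene (DNFB), a contact allergen, in acetone and olive oil 3 times a week for 22 days, so the comparison holds no untreated skin. The design of the Il33 allele, the embryonic stem cells it was made in, the breeding that followed, and the sex and age of the mice are not given in the sources used here. Nor do the labels tie each library to a separate animal, and the p-values reflect only how far these libraries spread.

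IL-33 is a cytokine of the interleukin-1 family that barrier cells such as keratinocytes hold in the nucleus and release on injury. As background, an allele that was built in embryonic stem cells of one strain and bred onto another carries chromosome of the donor strain on both sides of the targeted gene. Genes that flank a targeted gene can then differ between knockout and control mice without any role of the targeted gene. RNA counts alone do not show the origin of the chromosome, and DNA sequence and copy number were not analysed here.

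Il33 (ENSMUSG00000024810, chromosome 19, 29925114 to 29960718, plus strand) checked the labels. It had 21, 22 and 11 counts in the IL-33 KO libraries and 3906, 3086 and 2817 in the WT libraries. Its level in IL-33 KO skin was 0.530% of that in WT skin, at 0.782 ± 0.217 against 147.6 ± 44.3 CPM (counts per library size as scaled by edgeR; SD, n = 3 each), with a log2 fold change of -7.54 ± 0.32 (SE) and an edgeR adjusted p of 1.755e-04. Library totals ran from 20459574 to 24359612 counts. Keratinocyte markers were present in every library, and 9 of 10 stood lower in IL-33 KO, or 7 of 10 with libraries scaled by total counts alone. All 10 overlapped between genotypes, and none had an unadjusted edgeR p under 0.05. Their summed levels were 29800 to 50178 CPM in IL-33 KO against 41340 to 69520 CPM in WT libraries. All 18 hair follicle markers stood higher in IL-33 KO, with summed levels of 11636 to 23970 CPM against 2913 to 6931 CPM. Skeletal muscle markers summed to 15.5 to 347.5 CPM in IL-33 KO and 12.6 to 16.2 CPM in WT libraries, with IL-33 KO 2 within the WT range. All 9 tested muscle markers were higher, at a median log2 fold change of 3.92. Every tested marker of these lists had an unadjusted edgeR p under 0.05, against 9.02% of all genes tested. None passed the edgeR adjustment, while 10 hair follicle and 6 muscle markers passed in DESeq2, against 1.31% of all genes. Of the tested markers of other cell types, 4 of 6 for plasma cells were higher (median log2 fold change 3.40), 9 of 10 for adipocytes were higher (median 0.69) and 7 of 8 for fibroblasts were lower (median -0.37). For macrophages and mast cells 7 of 8 were lower (median -0.22). For T and NK cells 5 of 7 were higher (median 0.35), and for endothelial cells 3 of 5 were higher (median 0.0031). Summed levels were 1533 to 1845 against 1266 to 1568 CPM for plasma cells, 787.1 to 1130 against 185.2 to 851.6 CPM for adipocytes, and 12090 to 14147 against 12896 to 23090 CPM for fibroblasts. A sum follows the most abundant genes of its list. The plasma cell sums overlapped between genotypes, while 5 of the 6 tested genes did not (4 higher and 1 lower), against 13.9% of all genes. No gene of these marker lists was at 0 in all libraries, and the part of such cell types in the results that follow was not tested. In whole pieces of tissue, fewer cells of a type and less RNA per cell cannot be told apart.

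Fgfbp3 was the gene of the stretch that passed the test between genotypes. It encodes a secreted carrier protein that binds fibroblast growth factors and releases them from the extracellular matrix. Il33 and Fgfbp3 lie 6.992 Mb apart, measured between the start coordinates in the table. With a two-sided quasi-likelihood test in edgeR, Fgfbp3 was the 1 of 101 flanking genes with an adjusted p under 0.05, against 0.0191% of the 15720 genes tested, or 0.0127% in the direction of higher levels in IL-33 KO.

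The promoters of 3 flanking genes are shown. They are those of Fgfbp3, its neighbour Btaf1, and Uhrf2, the nearest of the 101 genes at higher coordinates than Il33. The start site of Btaf1 lies 6.464 kb from that of Fgfbp3, and Btaf1 is read in the other direction. The RefSeq promoter given for Ide starts inside the gene by the deposited coordinates and is not shown. Each run holds 250 bases before and 50 bases after the RefSeq start site on the strand of the gene (GRCm38.p6). They are chr19:36919550-36919849 on the minus strand for Fgfbp3, chr19:36925829-36926128 on the plus strand for Btaf1 and chr19:30030263-30030562 on the plus strand for Uhrf2. Capitals mark matches to the searched motifs on either strand.
Fgfbp3: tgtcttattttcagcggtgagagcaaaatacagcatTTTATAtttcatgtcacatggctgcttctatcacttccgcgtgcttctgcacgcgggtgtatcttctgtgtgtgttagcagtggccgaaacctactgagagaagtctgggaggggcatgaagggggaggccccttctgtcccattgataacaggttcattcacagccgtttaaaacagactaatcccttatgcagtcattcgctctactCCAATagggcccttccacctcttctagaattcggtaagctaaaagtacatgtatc
Btaf1: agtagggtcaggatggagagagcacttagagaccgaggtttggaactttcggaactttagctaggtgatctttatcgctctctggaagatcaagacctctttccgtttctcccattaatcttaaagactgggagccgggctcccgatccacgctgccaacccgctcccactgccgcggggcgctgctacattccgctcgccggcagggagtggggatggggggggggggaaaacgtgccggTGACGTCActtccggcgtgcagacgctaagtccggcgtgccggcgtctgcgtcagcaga
Uhrf2: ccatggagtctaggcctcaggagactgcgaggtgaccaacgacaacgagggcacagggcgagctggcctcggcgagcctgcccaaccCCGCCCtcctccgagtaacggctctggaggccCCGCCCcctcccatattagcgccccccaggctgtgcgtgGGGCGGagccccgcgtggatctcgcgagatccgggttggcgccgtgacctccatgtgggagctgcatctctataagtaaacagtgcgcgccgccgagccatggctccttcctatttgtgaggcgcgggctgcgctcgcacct
The motifs searched were the GC box with the letters GGGCGG, the box named after its letters CCAAT, the TATA box with the letters TATAAA, the E-box with the letters CACGTG and the cyclic AMP response element with the letters TGACGTCA, none of which overlapped another in these runs. The Fgfbp3 run holds a CCAAT box from position -5 and, on the other strand, a TATA box from position -214, counted from the start site. The Btaf1 run holds a cyclic AMP response element from position -9. The Uhrf2 run holds 3 GC boxes, from positions -163, -131 and -92, the last on the strand of the gene. The runs also differ in CG dinucleotides, with 9 in Fgfbp3, 25 in Btaf1 and 28 in Uhrf2, against a median of 19 over the promoters of tested genes. A CCAAT box is in 37.4% of all 32851 RefSeq promoters, a TATA box in 13.6%, a GC box in 35.7%, an E-box in 7.15% and a cyclic AMP response element in 1.79%. Of the flanking genes 85 matched a promoter in this table, with 108 promoters in all, of which 36.1% hold a CCAAT box, 10.2% a TATA box, 50% a GC box, 5.56% an E-box and 2.78% a cyclic AMP response element. Over the promoters of tested genes these shares were 36.7%, 8.46%, 58.3%, 9.27% and 2.82%, so the flanking genes lay above all promoters but below those of tested genes for the GC box, and the reverse for the TATA box. These matches describe letters and are not binding sites.

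Fgfbp3 (ENSMUSG00000047632, 36917550 to 36919615, minus strand, 2 exons) had 565, 532 and 500 counts in the IL-33 KO libraries and 141, 160 and 139 in the WT libraries. Scaled, these were 23.8, 22.4 and 24.2 CPM against 7.11, 6.99 and 5.48 CPM. The libraries of each genotype lay close together and the lowest IL-33 KO library stood well above the highest WT library. The mean rose to 359.9% of WT, from 6.52 ± 0.906 to 23.5 ± 0.921 CPM (SD, n = 3), with a log2 fold change of 1.85 ± 0.15 (SE) and an edgeR adjusted p of 0.0106. Per length, its level was 13.6 ± 0.884 against 3.56 ± 0.280 fragments per kilobase of gene, scaled by library total (FPKM; SD, n = 3). The log2 fold change stayed between 1.73 and 1.92 when each library was left out in turn. The edgeR adjusted p then rose above 0.05 in 4 cases. It was 0.1185 when IL-33 KO 1 was left out, 0.0618 when IL-33 KO 3 was, 0.0532 for WT 1 and 0.0774 for WT 2.

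Btaf1 and Ide, the other 2 genes near Fgfbp3 with separate genotypes, stood higher in IL-33 KO without passing edgeR. Btaf1 encodes an ATPase that removes the TATA-binding protein from DNA, and lies at 36926079 to 37012752 on the plus strand with 36 exons. Its level was 99.3, 81.1 and 75.5 CPM in IL-33 KO against 55.0, 44.0 and 56.1 CPM in WT libraries. The genotypes did not overlap. Its log2 fold change was 0.72 ± 0.15 (SE), and its adjusted p was 0.296 in edgeR and 0.0120 in DESeq2. By DESeq2, 2 flanking genes passed, Fgfbp3 and Btaf1, against 1.31% of all genes.

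Ide encodes insulin-degrading enzyme, a zinc metalloprotease that cleaves insulin and other small peptides, and lies at 37268743 to 37337852 on the minus strand with 27 exons. Its level was 742.3, 1097 and 794.2 CPM in IL-33 KO against 631.2, 567.1 and 361.9 CPM in WT libraries. IL-33 KO 2 was the highest and WT 3 the lowest library, and the genotypes did not overlap. The log2 fold change was 0.76 ± 0.25 (SE) with an edgeR adjusted p of 0.476. Per length, Ide was after Anxa1 the most abundant flanking gene, at 181 ± 34.8 FPKM in IL-33 KO and 101 ± 21.9 FPKM in WT (SD, n = 3).

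The genes between and beside these 3 overlapped between genotypes. Cpeb3, a translational regulator that binds messenger RNA tails, and March5, a ubiquitin ligase of the outer mitochondrial membrane, lie between Btaf1 and Ide. Their log2 fold changes were -0.085 ± 0.190 and -0.074 ± 0.107 (SE), with edgeR adjusted p-values of 0.900 and 0.843. On the outer sides, Tnks2, a tankyrase that modifies proteins with poly(ADP-ribose), had 0.07 ± 0.13, and Kif11, a motor protein of the mitotic spindle, had 0.17 ± 0.16 (SE). As background, a segment of chromosome 19 that holds Ide and Fgfbp3 is known to vary in copy number among C57BL/6J mice. Copy number was not analysed here, and its part in these differences was not tested.

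**Figure D1:**
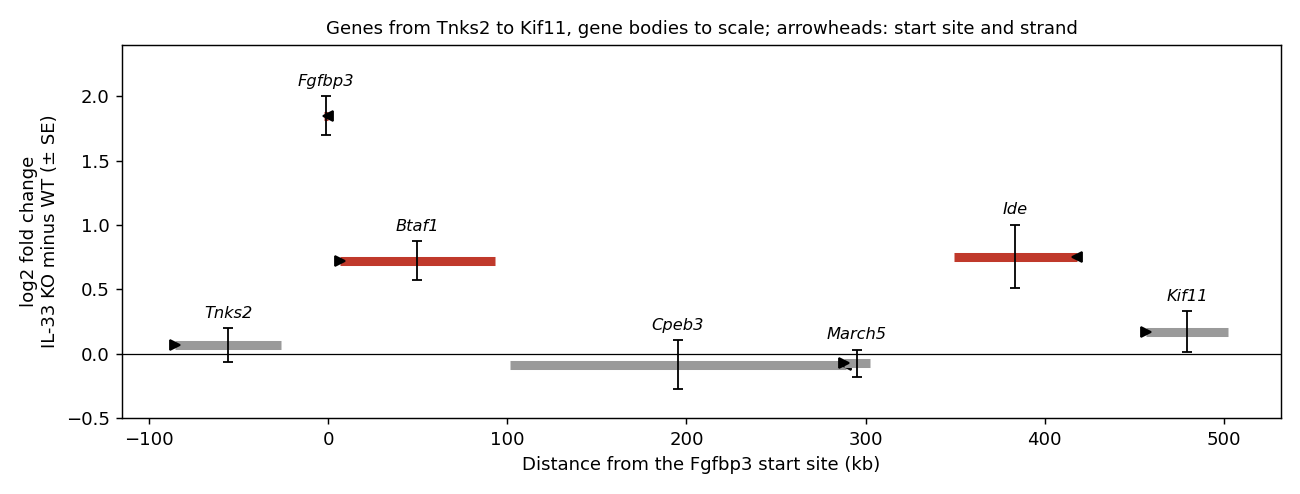
The vertical axis gives the edgeR log2 fold change (IL-33 KO minus WT, bars ± SE) and the horizontal axis the distance from the Fgfbp3 start site in kb. Gene bodies are drawn to scale, red where the genotypes do not overlap and grey where they do: Fgfbp3 at 1.85, Btaf1 at 0.72 and Ide at 0.76 stand above Tnks2, Cpeb3, March5 and Kif11, which lie between -0.085 and 0.17.

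Over all 101 genes the differences were small and ran both ways. The median log2 fold change was -0.0024, against -0.013 over all genes tested, and 50 genes were higher against 51 lower. With libraries scaled by total counts alone, 68 were higher and 33 lower, and the same scaling moved the median of all genes by 0.080 on the log2 scale. The median size of the log2 fold change, without its sign, was 0.21 for the flanking genes, 0.18 for all genes and 0.16 for the 405 protein-coding genes tested on chromosome 19 outside the stretch. Of the flanking genes, 12 had an unadjusted p under 0.05 in edgeR (11.9%, against 9.02% of all genes), 6 of them higher (4.87% of all genes) and 6 lower (4.15%). With total-count scaling these were 7 higher and 1 lower, against 906 and 334 of all genes. The genotypes did not overlap in 13 genes (12.9%, against 13.9% of all genes), with 7 higher (7.46%) and 6 lower (6.47%). A log2 fold change beyond 0.5 in size was seen in 15 genes (14.9%, against 13.7%). These shares lie near the background.

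**Figure D2:**
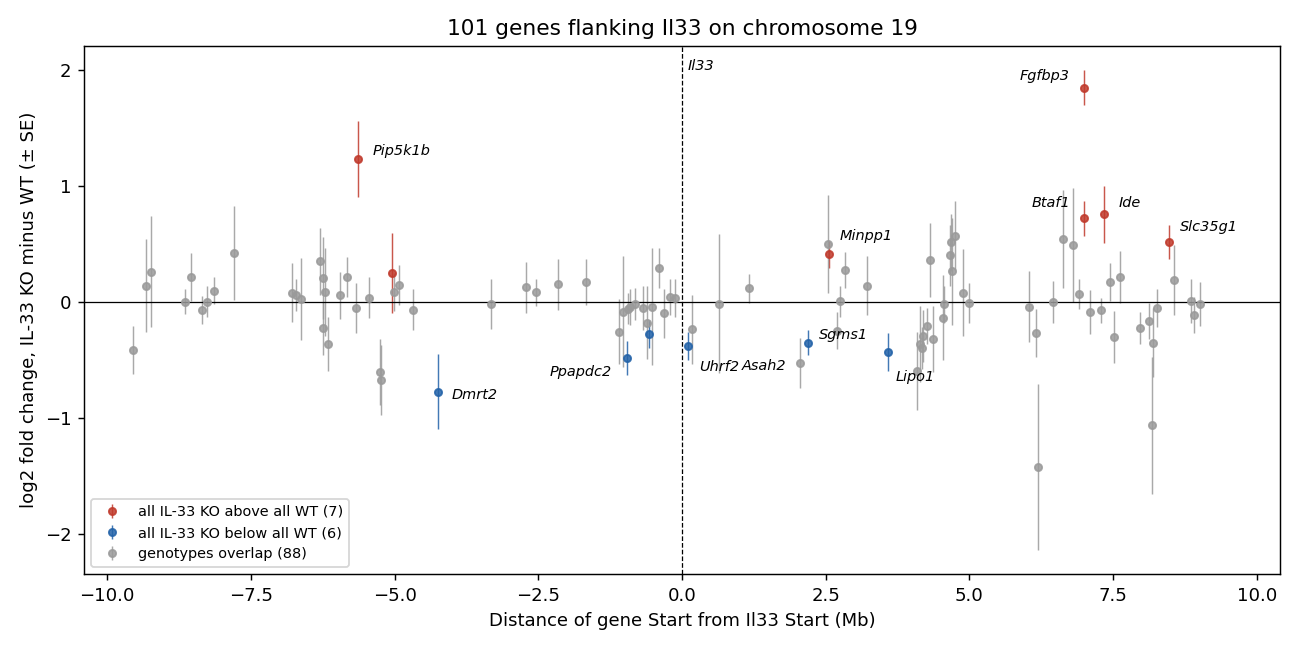
Each point is a flanking gene, with its edgeR log2 fold change (IL-33 KO minus WT, bars ± SE) on the vertical axis and the distance of its start coordinate from that of Il33 in Mb on the horizontal axis, negative for lower coordinates. The 7 red and 6 blue genes, in which the genotypes do not overlap, are spread over both sides, and Fgfbp3 stands highest at 1.85.

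Size and sign varied with distance as follows. Within 1 Mb of Il33, 3 of 15 genes were higher and 12 lower, the median log2 fold change was -0.057 and the median size 0.058; with total-count scaling this median was 0.030. From 1 to 2.5 Mb, 3 of 7 genes were higher, with a median of -0.084. From 2.5 to 5 Mb, 14 of 28 were higher, with a median of -0.0018 and a median size of 0.27. From 5 to 10 Mb, 30 of 51 were higher, with a median of 0.035 and a median size of 0.21. The median sizes show no steady fall away from Il33, and the bin nearest to Il33 had the smallest.

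The genes at an unadjusted p under 0.05 within 2.5 Mb of Il33, 2 of 15 and 2 of 7, were all lower in IL-33 KO. Those beyond 5 Mb, 5 of 51, were all higher. From 2.5 to 5 Mb, 1 was higher and 2 were lower. This pattern depends on the scaling, since with total-count scaling 1 gene of the whole stretch was lower at that p. It also depends on the genes left out by name. Mlana, 0.227 Mb from Il33, and Ifit3, at 4.658 Mb, were higher, with unadjusted edgeR p-values of 0.00367 and 0.0238. Across the 101 genes, distance and size had a Pearson r of 0.12 and a Spearman rho of 0.028, and distance and signed log2 fold change had an r of 0.13 and a rho of 0.18. These are descriptions across genes that share the same libraries. By side, 3 of 48 genes at lower and 9 of 53 at higher coordinates had an unadjusted p under 0.05, and the difference between sides was not tested.

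**Figure D3:**
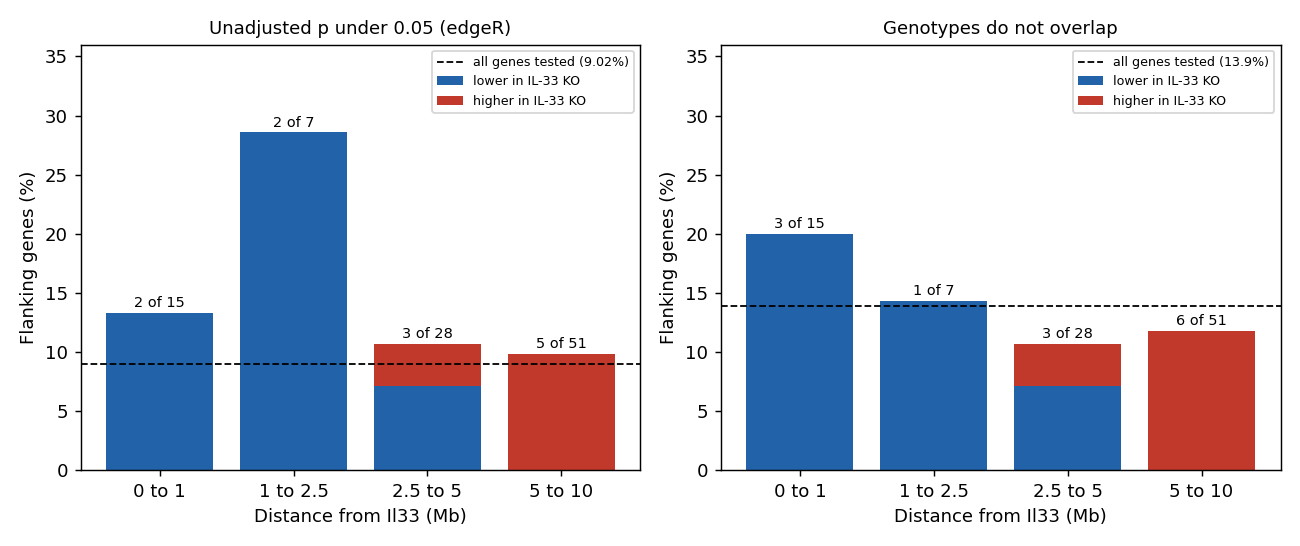
Bars give the percentage of flanking genes in each bin of distance from Il33 (Mb) with an unadjusted edgeR p under 0.05 (left) or without overlap between genotypes (right), split into higher (red) and lower (blue) in IL-33 KO; dashed lines give the percentage over all genes tested, 9.02% and 13.9%. The bin from 1 to 2.5 Mb rests on 7 genes, and all bars beyond 5 Mb are red.

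Of the 5 nearest of the 101 genes on each side of Il33, Uhrf2 was the one in which the genotypes did not overlap. Mlana, left out by name and 0.227 Mb from Il33 at lower coordinates, did not overlap either, with a log2 fold change of 1.36 ± 0.34 (SE). Uhrf2 encodes a nuclear protein with a ubiquitin ligase domain that recognises modified DNA and histones, and lies 0.105 Mb from Il33. Its level was 31.3, 26.4 and 31.0 CPM in IL-33 KO against 36.9, 37.6 and 40.9 CPM in WT libraries. All IL-33 KO libraries were below all WT libraries, and the log2 fold change was -0.38 ± 0.12 (SE) with an edgeR adjusted p of 0.465. Next to it, Gldc, the decarboxylase of the glycine cleavage system, had -0.24 ± 0.30 and Prkg1, a protein kinase that responds to cyclic GMP, -0.01 ± 0.60. Cstf2t, an RNA 3-prime processing factor, had 0.12 ± 0.13. Asah2, which encodes neutral ceramidase, had -0.53 ± 0.21. In Asah2 the IL-33 KO values of 20.3, 31.4 and 19.98 CPM overlapped the WT values of 35.0, 40.1 and 28.2 CPM, with an edgeR adjusted p of 0.538.

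At lower coordinates the 5 nearest of the 101 genes all overlapped. Ranbp6, a relative of nuclear import receptors 0.117 Mb from Il33, had 15.5, 18.1 and 14.8 CPM in IL-33 KO against 15.1, 13.5 and 18.7 CPM in WT. Its log2 fold change was 0.03 ± 0.17 (SE). 9930021J03Rik had 0.04 ± 0.16, Ermp1, a metalloprotease of the endoplasmic reticulum, -0.10 ± 0.21, C030046E11Rik (Ric1, part of the exchange factor for the vesicle protein Rab6) 0.29 ± 0.17, and Pdcd1lg2, the PD-1 ligand PD-L2, -0.04 ± 0.51 (SE). Pdcd1lg2 was barely detected, with 0.675 to 1.27 CPM in IL-33 KO and 0.524 to 1.81 CPM in WT.

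The genes of growth factor and intracellular signalling held Fgfbp3 and Pip5k1b, the highest fold changes of the 101 genes. Of 14 measured, 10 were higher and 4 lower (12 and 2 with total-count scaling), at a median log2 fold change of 0.16, and 1 passed. Pip5k1b, a kinase that makes the membrane lipid phosphatidylinositol bisphosphate, had low levels of 3.08, 2.07 and 2.23 CPM in IL-33 KO against 1.41, 0.786 and 0.946 CPM in WT. The genotypes did not overlap, and its log2 fold change was 1.24 ± 0.33 (SE) with an edgeR adjusted p of 0.402. Minpp1, a phosphatase of inositol polyphosphates, had 69.1, 60.02 and 57.9 CPM against 46.9, 49.0 and 44.9 CPM. It was also separate, at 0.41 ± 0.12 (SE) with an edgeR adjusted p of 0.434.

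Sgms1, which encodes a sphingomyelin synthase, ran the other way, with 38.3, 41.3 and 37.1 CPM in IL-33 KO against 51.4, 47.6 and 50.03 CPM in WT. The genotypes did not overlap, and its log2 fold change of -0.35 ± 0.11 had the smallest SE of the 101 genes, with an edgeR adjusted p of 0.458. Sgms1 shares exon sequence with 2700046G09Rik on the other strand, and 17 of the 101 genes have such an overlap. Whether reads were counted by strand is unstated in the labels and notes, and counts of such partners may be mixed.

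**Figure D4:**
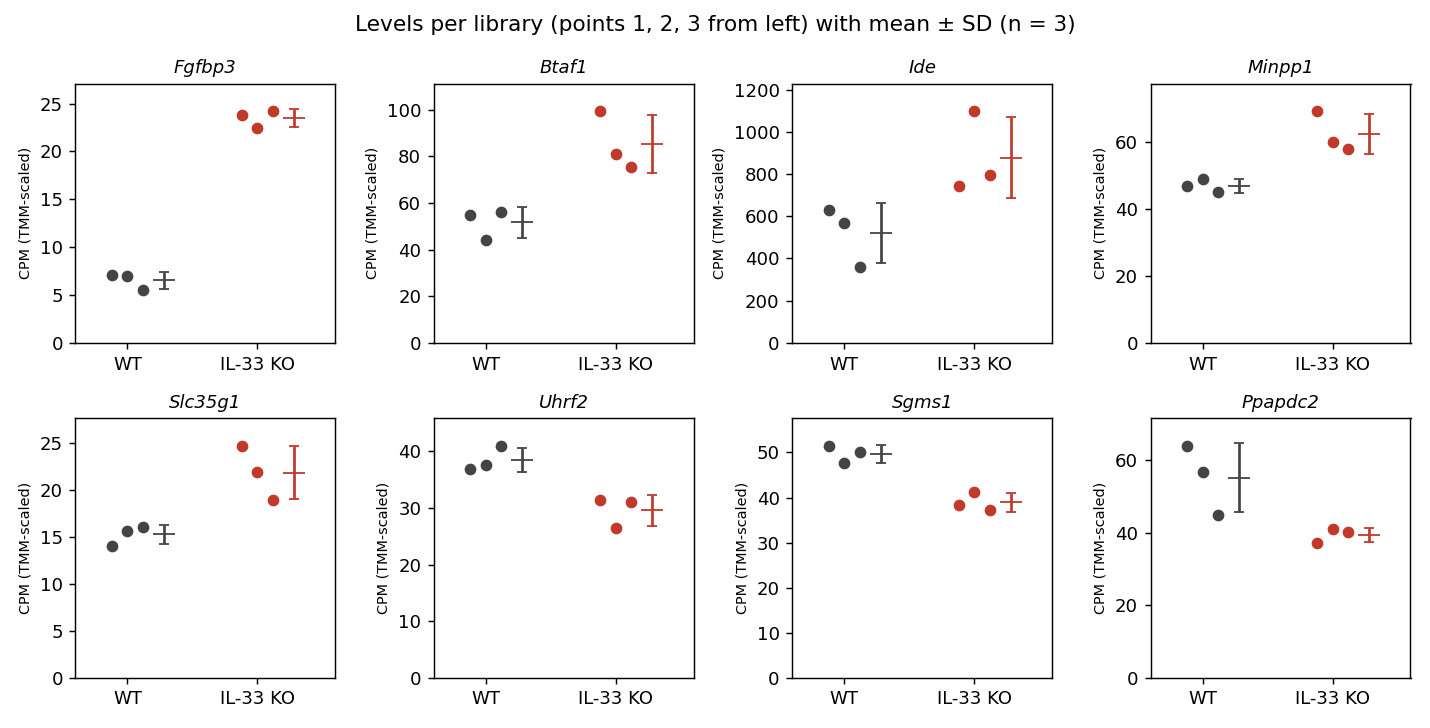
Each panel gives 1 flanking gene, with its level in CPM on the vertical axis from 0, points for the 3 WT (grey) and 3 IL-33 KO (red) libraries, and mean ± SD beside them. In all 8 genes shown the genotypes do not overlap, and Fgfbp3 has the widest relative gap, with 5.48 to 7.11 CPM in WT and 22.4 to 24.2 CPM in IL-33 KO.

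Since Fgfbp3 acts on fibroblast growth factors, the genes of that pathway across the genome were read in the same fit. Of 32 listed, 29 were tested, 20 were higher and 9 lower (23 and 6 with total-count scaling), the median log2 fold change was 0.11, and none passed edgeR. In this list 6 had an unadjusted p under 0.05, 4 higher and 2 lower, against 9.02% of all genes (4.87% higher and 4.15% lower). The genotypes did not overlap in 7 (24.1%, against 13.9% of all genes), 5 higher and 2 lower. DESeq2 passed 1, Fgf5, against 1.31% of all genes. Fgf5, a growth factor that ends the growth phase of the hair cycle, had 5.99, 2.45 and 2.32 CPM in IL-33 KO against 0.907, 0.524 and 1.38 CPM in WT. The genotypes did not overlap, and IL-33 KO 1 was the highest library, as it was for the hair follicle markers. The log2 fold change of Fgf5 was 1.92 ± 0.50, with an adjusted p of 0.389 in edgeR and 0.0171 in DESeq2.

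The related carrier Fgfbp1 stood lower, at 106.5, 139.1 and 144.1 CPM in IL-33 KO against 190.8, 177.4 and 163.1 CPM in WT. It did not overlap, with a log2 fold change of -0.45 ± 0.15 and an edgeR adjusted p of 0.487. Per length, Fgfbp1 remained the more abundant carrier in both genotypes, at 115 ± 14.4 and 149 ± 4.82 FPKM (SD, n = 3). Fgf2, a growth factor held by the matrix, had 1.13 ± 0.34, and Etv4, a transcription factor induced by the pathway, had 0.56 ± 0.16, with edgeR adjusted p-values of 0.458 and 0.440. In both, all IL-33 KO libraries were above all WT libraries. The keratinocyte receptor Fgfr2 overlapped, at 87.1 ± 3.73 CPM in IL-33 KO and 82.4 ± 11.4 CPM in WT (SD, n = 3).

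The genes of lipid metabolism, among them the epidermal lipases, stood mostly lower. Of 12 measured, 1 was higher and 11 lower (2 and 10 with total-count scaling), at a median log2 fold change of -0.38, and none passed. In this list 4 genes had an unadjusted p under 0.05, all lower: Ppapdc2, Sgms1, Lipo1 and Asah2. Over all genes 9.02% had such a p, and 4.15% were lower with it. With total-count scaling 1 did. Ppapdc2 (Plpp6), a phosphatase of isoprenoid and lipid phosphates 0.961 Mb from Il33, had 37.2, 41.0 and 40.1 CPM in IL-33 KO against 63.9, 56.9 and 44.9 CPM in WT. The genotypes did not overlap, and the log2 fold change was -0.49 ± 0.15 (SE) with an edgeR adjusted p of 0.458.

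Lipo1, a lipase of the acid lipase family, had 7.88, 9.19 and 7.45 CPM against 10.6, 10.1 and 12.4 CPM. It did not overlap, at -0.43 ± 0.17 (SE) with an edgeR adjusted p of 0.527. Lipk, Lipn and Lipm belong to the same family, are known from the upper epidermis, and sit together from 4.083 to 4.176 Mb from Il33. Their log2 fold changes were -0.59 ± 0.34, -0.36 ± 0.33 and -0.40 ± 0.18 (SE), and each overlapped between genotypes. For Lipm, the most abundant of them, the levels were 77.7, 91.0 and 69.9 CPM against 110.1, 123.2 and 81.1 CPM, so WT 3 lay within the IL-33 KO range. Of the keratinocyte markers, 9 of 10 stood lower in IL-33 KO in the same libraries but overlapped between genotypes, as given above. The lysosomal lipase Lipa, next in the cluster, overlapped at -0.02 ± 0.16. How reads shared by close copies in this family were divided is likewise unstated.

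The 10 genes of the immune list overlapped between genotypes in all cases. Of them 2 were higher, Dock8 and C030046E11Rik (Ric1), and 8 lower (4 and 6 with total-count scaling). Their median log2 fold change was -0.17, and none had an unadjusted p under 0.05. This list does not hold the 3 Ifit relatives among the flanking genes, which were all higher and are given at the end. The balance of higher and lower genes thus depends on which genes were listed. Anxa1, which encodes annexin A1, a protein with anti-inflammatory actions, was per length the most abundant flanking gene at 414.5 ± 29.9 FPKM in IL-33 KO and 519.7 ± 120.3 FPKM in WT (SD, n = 3). It had 633.0, 651.7 and 741.9 CPM against 1184, 794.0 and 727.3 CPM, and its log2 fold change was -0.42 ± 0.21 (SE) with an edgeR adjusted p of 0.593. WT 1 was the high library. Jak2, a kinase of cytokine receptors 0.673 Mb from Il33, had -0.06 ± 0.19, and Dock8, a regulator of immune cell migration, 0.14 ± 0.17. The death receptor Fas had -0.32 ± 0.28 (SE). Ffar4, a receptor for long-chain fatty acids, had low levels of 0.387 to 0.590 CPM in IL-33 KO and 0.302 to 1.74 CPM in WT, and its log2 fold change of -1.07 became -0.41 without WT 3.

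Among the 17 genes of chromatin, transcription and RNA, 8 were higher and 9 lower (12 and 5 with total-count scaling), at a median log2 fold change of -0.0024. Btaf1 and Uhrf2 are given above. Dmrt2, a transcription factor of the DM domain family, had 1.39, 0.844 and 0.967 CPM in IL-33 KO against 2.22, 1.83 and 1.46 CPM in WT. It did not overlap, at -0.77 ± 0.33 with an edgeR adjusted p of 0.547. The chromatin remodeller Smarca2 overlapped, at -0.02 ± 0.22 (SE). The 7 genes of cell division and genome maintenance lay between -0.058 and 0.17, with 4 higher and 3 lower (7 and 0 with total-count scaling). Cdc37l1, a relative of a partner of the Hsp90 chaperone, had -0.06 ± 0.13 (SE). Kif20b, a motor protein of cytokinesis, had -0.01 ± 0.17 and Hells, a chromatin remodeller of dividing cells, -0.02 ± 0.19.

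Of 14 genes of mitochondrial and intermediary metabolism, 8 were higher and 6 lower (11 and 3 with total-count scaling), and those at an unadjusted p under 0.05 were Ide and Minpp1. Slc16a12, a monocarboxylate transporter, had 0.57 ± 0.30 with an edgeR adjusted p of 0.603. Pank1, a kinase of coenzyme A synthesis, ranged from 27.6 to 75.8 CPM among WT libraries, more widely than the 39.0 to 58.3 CPM in IL-33 KO. Of 20 genes of junctions, cytoskeleton and membrane, 12 were higher and 8 lower. Slc35g1, a membrane protein of the solute carrier families, had 24.7, 21.9 and 18.96 CPM in IL-33 KO against 14.1, 15.7 and 16.05 CPM in WT. It did not overlap, at 0.52 ± 0.14 (SE) with an edgeR adjusted p of 0.434. Acta2, smooth muscle actin, ranged from 67.5 to 145.8 CPM against 57.7 to 110.8 CPM, and the smooth muscle markers as a list had 4 of 6 genes higher. Ankrd1, a muscle stress protein at under 2 CPM in every library, had -1.43 ± 0.72, and -0.58 without WT 3. Pgm5, a phosphoglucomutase relative of muscle adhesion sites, had 8.01, 10.33 and 8.32 CPM against 9.67, 11.3 and 21.4 CPM, with WT 3 high.

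**Figure D5:**
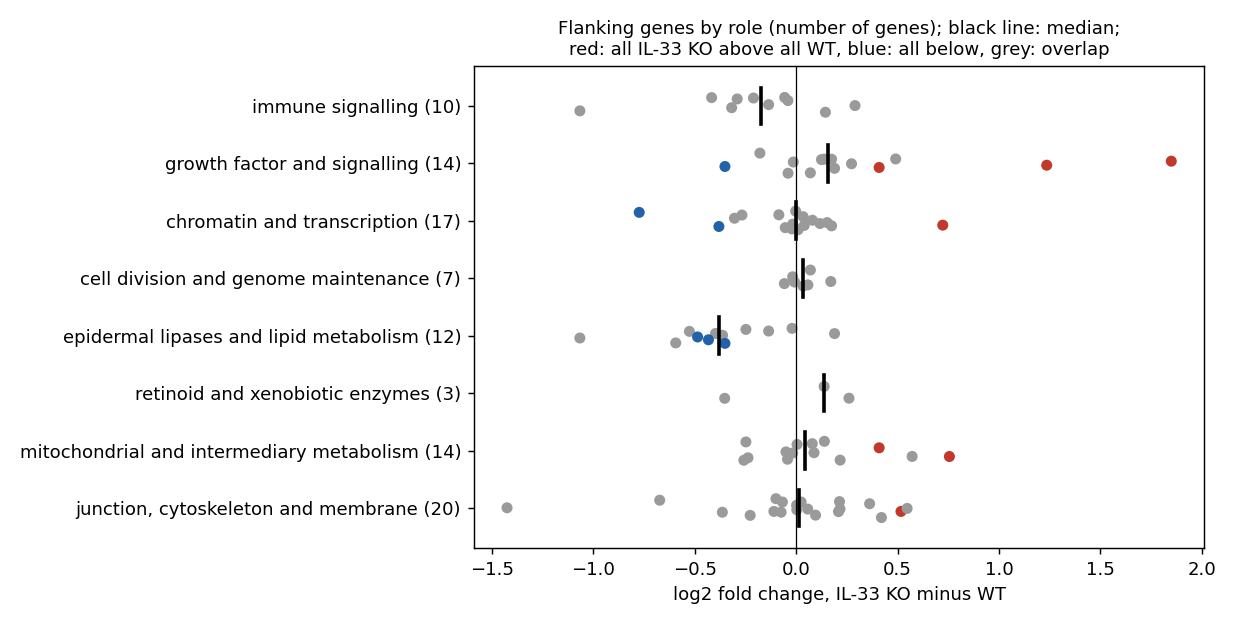
Points give the edgeR log2 fold change (IL-33 KO minus WT, horizontal axis) of the flanking genes in each role list (vertical axis, number of genes in brackets; a gene may be in several lists), and black lines the medians. The lipid list has the lowest median at -0.38 and the growth factor and signalling list the highest gene, Fgfbp3 at 1.85.

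Of 3 measured genes of retinoid and xenobiotic metabolism, none had an unadjusted p under 0.05. Aldh1a1 and Aldh1a7, aldehyde dehydrogenases, had 0.14 ± 0.40 and 0.26 ± 0.48, and Rbp4, the retinol carrier, -0.35 ± 0.30 (SE). The remaining 15 genes are in no role list, and of these Plgrkt and Gm10053 did not overlap. Tmem252, a transmembrane protein in this group, had 6.92, 3.37 and 6.14 CPM in IL-33 KO against 6.80, 9.74 and 8.40 CPM in WT, with IL-33 KO 2 low, and a log2 fold change of -0.60 ± 0.29 (edgeR adjusted p = 0.576). Plgrkt, a plasminogen receptor 0.576 Mb from Il33, had 22.1, 23.0 and 25.5 CPM in IL-33 KO against 28.5, 30.5 and 26.4 CPM in WT, at -0.28 ± 0.12 with an edgeR adjusted p of 0.557. Gm10053, which RefSeq lists as a pseudogene, had 0.632, 0.717 and 0.677 CPM against 0.454, 0.611 and 0.631 CPM. Its lowest IL-33 KO library and highest WT library nearly met, and its log2 fold change was 0.25 ± 0.35 (SE). The flanking genes summed to 4235 to 4696 CPM in IL-33 KO and 4033 to 4662 CPM in WT libraries, so their joint level overlapped between genotypes.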

How the data were processed

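For the same 35275 genes and 6 libraries there are deposited read counts and deposited FPKM values. STAR, RSEM and mm10 are named, without versions, per the submitters' processing notes. The counts deposited by the authors are whole numbers and were used unchanged, while the FPKM values of the authors serve only to compare levels between genes and as an alternative unit. Counts were fitted in R 4.3.3 with edgeR 4.0.16 (filterByExpr by genotype, TMM scaling, quasi-likelihood F test, two-sided, Benjamini-Hochberg adjustment over the 15720 genes tested, threshold 0.05). CPM values are counts over the TMM-scaled library size. The biological coefficient of variation was 21.3%. Fits with limma 3.58.1 and DESeq2 1.42.0 were alternatives, and the scripts were tested on simulated data.

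The flanking genes, role lists, marker lists and pathway list were chosen with earlier results of these data known. Named in the text are genes with an adjusted p under 0.05, those with the smallest p in each direction and in each list, the nearest to Il33, and those at the edges of the rule. Genes added after their values were seen are Gm10053, Cpeb3, March5, Jak2, Dock8, Fas, Lipk, Lipn, Lipa, Smarca2, Kif20b, Pank1, Acta2 and Fgfr2, and in the closing section those left out by name and the other gene types. Symbols were matched to RefSeq for 100 of the 101 genes, and to GENCODE M21 for exons. Dates stood in place of 27 deposited symbols, and 1 flanking gene, March5, was read back by its identifier. Replicate numbers were checked for pairing: the deviations of same-numbered libraries correlated at -0.264, -0.117 and -0.378, and those of other pairs at -0.0367 to 0.275. Libraries were therefore not paired in the main fit. Deviations from the mean of 3 libraries constrain each other, so these values cannot exclude pairing.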

Additional observations from a re-analysis of the deposited data

How the results depend on the processing

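Precision was limited by 3 libraries a genotype: the median SE of the flanking genes was 0.21 on the log2 scale, and SE fell with level (rho of -0.73 with mean log2 CPM). WT 3 also stood apart from the other WT libraries. A chi-square statistic per degree of freedom, on all counts of a pair of libraries, was 100.1 for WT 3 with WT 1 and 89.6 with WT 2. It was 42.2 for WT 1 with WT 2, and 33.2 to 53.9 for WT 3 with the IL-33 KO libraries. The reason was not tested. The 20 flanking genes with the smallest p, 10 in each direction, kept their direction in all 14 to 16 alternatives tried for each. These genes were picked by p in the main fit and the alternatives reuse the same libraries, so this is no separate support. Numbers of genes passing: DESeq2 gave 2 flanking genes and a stretch of 5 Mb each side gave 0. A fit in edgeR with the replicate number as a replicate block gave 0, with an adjusted p of 0.334 for Fgfbp3. Whether the numbers pair the libraries is not given in the labels. Leaving out each library gave 0 to 1. Genes at an unadjusted p under 0.05 (12) numbered 7 on log2(FPKM + 1) and 7 on log2(FPKM + 0.1), where 82 flanking genes were tested. They numbered 7 within 5 Mb, and 11 to 20 without each library, the most without WT 3. Over all genes such p-values numbered 1418 of 15720 in the main fit. They numbered 991 of 13052 on log2(FPKM + 1) and 979 of 13052 on log2(FPKM + 0.1). Without each library they ran from 716 of 15941 (without IL-33 KO 1) to 2750 of 15991 (without WT 3). Genes without overlap (13) numbered 7 within 5 Mb and 21 to 31 without each library, when 19.9% to 36.5% of all genes did not overlap. With total-count scaling, 7 were higher and 1 lower at an unadjusted p under 0.05. This scaling put the median log2 fold change of the stretch at 0.076, that within 1 Mb at 0.030 and that from 5 to 10 Mb at 0.12. On log2(FPKM + 1) the median was 0.071, the median size 0.16, and the medians within 1 Mb and from 1 to 2.5 Mb 0.029 and -0.25. On log2(FPKM + 0.1) the median was 0.079, and the medians within 1 Mb, from 1 to 2.5 Mb and from 5 to 10 Mb were 0.031, -0.27 and 0.095. The median size was 0.19 with a summed count of at least 120, and 0.18 without the 3 genes that RefSeq names as Ifit relatives, an alternative chosen after seeing the data. Without each library the median ran from -0.029 to 0.040, the median size from 0.16 to 0.25, and the medians by distance from -0.18 to 0.0067 within 1 Mb, -0.34 to 0.085 from 1 to 2.5 Mb, -0.046 to 0.077 from 2.5 to 5 Mb and -0.010 to 0.085 from 5 to 10 Mb. The cause of these shifts was not tested. Overlap was not counted for DESeq2, limma-voom, the other size factors or the replicate block.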

Other observations

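The genes left out of the stretch by name gave the following values. Mlana, a melanosome protein of pigment cells, had 12.5, 5.19 and 11.2 CPM in the IL-33 KO libraries against 4.08, 3.06 and 4.14 CPM in WT. The genotypes did not overlap, and the log2 fold change was 1.36 ± 0.34 (SE), and the adjusted p was 0.380 in edgeR and 0.0124 in DESeq2. Cd274, the PD-1 ligand PD-L1, ranged from 26.4 to 56.8 CPM against 14.8 to 69.1 CPM. Ifit1, Ifit2 and Ifit3, antiviral proteins induced by interferon, had 0.60 ± 0.28, 0.06 ± 0.22 and 0.59 ± 0.21 (SE), and all 3 overlapped. Their relatives among the flanking genes, Gm14446 (Ifit1bl1), I830012O16Rik (Ifit3b) and 2010002M12Rik (Ifit1bl2), had 0.40 ± 0.26, 0.51 ± 0.25 and 0.26 ± 0.46 (SE), and overlapped too.

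Of 43 listed genes of other types in the stretch, 4 were tested and all 4 stood higher in IL-33 KO. The long noncoding RNA A930007I19Rik had 1.56, 1.35 and 1.40 CPM in IL-33 KO against 1.01, 0.524 and 1.10 CPM in WT. It did not overlap, with a log2 fold change of 0.71 ± 0.36 (SE) and an edgeR adjusted p of 0.596. The other 3, Gm10136, Rpl10-ps6 and 2700046G09Rik, overlapped between genotypes, at 0.43, 0.36 and 0.19.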
